A study of Drosophila melanogaster with 34 samples.

Results

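Small RNA was sequenced from the sperm of Drosophila melanogaster males labelled with an aub mutation and from the sperm of wild-type (WT) males. The comparison holds 6 libraries of the 34 samples in the series, 3 from aub mutant sperm and 3 from WT sperm, chosen by their labels. Another 3 libraries from piwi mutant sperm went through the same fit and are given as a second mutant where their values differ from those of aub sperm. The series as a whole concerns sperm piRNAs and metabolic priming across generations. The labels describe total RNA, a small RNA library kit with a block against 2S rRNA, and gel selection by size. They give no allele, zygosity, strain background, fly age or diet for these libraries, so the mutation and the background of the stock cannot be told apart. They also name 2 preparation sites without assigning libraries to them, and they do not say that replicates came from separate flies, so a p-value here measures the spread between libraries, which may be technical.

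Aubergine (Aub) is a PIWI-clade Argonaute protein of germ cells. It carries piRNAs in the cytoplasm, cuts complementary transposon RNA and takes part in the ping-pong cycle, in which sense and antisense piRNAs give rise to each other, whereas Piwi acts in the nucleus on transcription. In the testis Aub is known for silencing the X-linked Stellate repeats with piRNAs from the Y-linked Suppressor of Stellate, and its loss is known to release Stellate and to impair male fertility. The counts cover all small RNA of the libraries, with degradation fragments of longer RNA among them, and no read lengths were used, so the values below are not piRNA levels as such.

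Total counts were 8025783, 10725869 and 7900729 in aub libraries, against 6674923, 3303302 and 7294914 in WT libraries. Ribosomal RNA held 76.3% to 84.6% of the counts in the 9 libraries of aub, piwi and WT sperm, and antisense counts came to 22842 to 62644 per library. The aub gene itself had 1, 0 and 2 counts in aub libraries, against 0, 1 and 1 in WT libraries, so its counts do not check the labels. WT 1 and piwi 1 stood apart from the other libraries in composition, with scaling factors (edgeR's TMM method) of 0.726 and 0.675, against 0.964 to 1.25 in the other 7. Levels are given in counts-per-million (CPM) units, and markers of muscle summed to 1099 to 2337 CPM in aub libraries and 1713 to 2522 CPM in WT libraries. The 32 spermatocyte and spermatid markers summed to 15.9 to 154 CPM in aub libraries and 43.9 to 59.9 CPM in WT libraries, with aly and sa at 0. The libraries labelled sperm thus also held reads of muscle genes.

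A feature below is 1 annotation on 1 strand: a gene's exons, an untranslated region (UTR), a transposon consensus, a simple repeat or a structural RNA. Of 72425 features with a value in every aub, piwi and WT sperm library, 48033 had at least 1 count, and 10804 passed the filter on low counts. Those 10804 were tested with edgeR's quasi-likelihood test with Benjamini-Hochberg adjustment, the test behind every adjusted p that follows unless another is named. The threshold was an adjusted p under 0.05, log2 fold changes are given ± SE, and levels of single features are in CPM on TMM-scaled library sizes. In aub against WT sperm, 98 features rose (0.907% of those tested) and 101 fell (0.935%). The number of calls rests on single libraries: it came to 34 without aub 2, 34 without aub 3, 63 without WT 2 and 70 without WT 3, of which 33, 33, 58 and 56 were among the 199, and 26 features, 6 higher and 20 lower, were called with any 1 of the 6 libraries left out. The CPM values of the 3 aub libraries did not overlap with those of the 3 WT libraries in 2276 features (21.1%), above WT in 1266 (11.7%) and below WT in 1010 (9.35%), and all 199 called features were among them. The median log2 fold change of all tested features was 0.02. It was 0.18 with library totals in place of TMM and 0.61 with the sum of miRNA counts as the library size, where 259 features rose and 50 fell, so a class or list median nearer to 0 than these shifts can turn sign with the scaling.

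The 199 calls were spread over feature classes. The sense strand of coding exons held 52 higher and 49 lower of 5111 tested, with a median of 0.02. Transposons and other repeats held 6 higher and 6 lower of 118 tested on the sense strand (median -0.24), and 3 higher and 2 lower of 130 on the antisense strand (median -0.30). Simple repeats held 2 higher and 13 lower of 227 tested over both strands. Small nucleolar RNAs (snoRNAs), which guide chemical modification of ribosomal RNA, were the class with the lowest median among those with more than 1 tested feature, -0.74, and 9 of 228 fell while none rose. In piwi against WT sperm, which uses these same WT libraries, 97 features were called (0.898%), 37 higher (0.342%) and 60 lower (0.555%). That number was 40, 39 and 51 without piwi 1, piwi 2 and piwi 3, and 44 and 47 without WT 2 and WT 3, and the split was 28 higher and 127 lower with the sum of miRNA counts as library size.

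**Figure D1:**
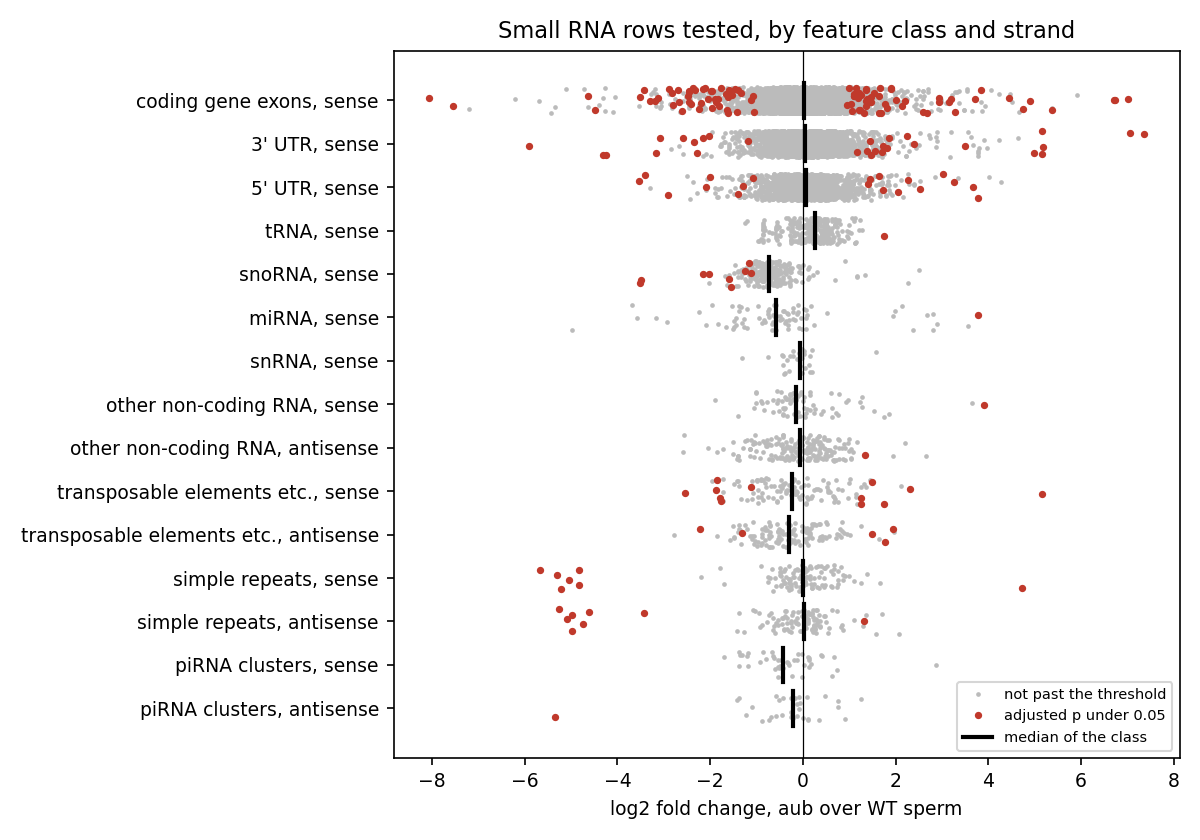
Log2 fold change of tested features in aub over WT sperm (x axis), by class and strand for the classes named on the y axis, with called features in red and a bar at each class median. The snoRNA points lie mostly left of 0 around a median of -0.74, and the lowest simple repeats reach -5.68.

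The plot by class shows where the wide changes lie. The called features furthest left include exons of beat-VII (-8.06) and CG44153 (-7.55), both at 0 counts in aub libraries, and the beat-VII 3′ UTR (-5.92). Called simple repeats reach down to -5.68. Those on the right edge are mostly single genes, with the transposon R2 among them. Of the higher features, 50 of 98 had no group mean reaching 10 CPM, as did 51 of the 101 lower ones.

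Transposons are the usual targets of Aub. Summed on library totals over the large families, the aub and WT libraries overlapped. The small groups of R1 and R2 and of telomeric elements, described further on, did not. LTR elements outside the gypsy group summed to 482, 418 and 417 CPM of sense reads in aub libraries, against 482, 573 and 443 CPM in WT libraries, a ratio of 0.880. Their antisense reads had a ratio of 0.946, gypsy-type elements had 0.848 on the sense and 0.975 on the antisense strand, DNA transposons had 1.04 and 1.12, and LINE elements outside R1, R2 and the telomere had 0.883 and 0.760. The antisense share of all transposon and repeat reads was 52.0%, 41.5% and 46.1% in aub libraries, against 49.7%, 51.7% and 50.0% in WT libraries, and the groups overlapped (two-sided exact permutation p = 0.4, adjusted 0.65 over 13 groups of features). Single elements moved in both directions around these sums.

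The widest change among transposons was in R2_DM, a LINE-type element that inserts only into the 28S ribosomal RNA genes. Sense reads of R2_DM were at 94.2, 135.8 and 78.8 CPM in aub libraries, 6.68, 6.92 and 31.9 CPM in piwi libraries, and 1.65, 4.02 and 3.05 CPM in WT libraries. Each aub library lay above every piwi and WT library. R2_DM rose by a log2 fold change of 5.15 ± 0.69 over WT (adjusted p = 0.00841), and the call held with any of the 6 libraries left out (largest adjusted p 0.0497). Against piwi the log2 fold change was 2.78 ± 0.60 and missed the threshold (adjusted p = 0.0968).

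R1_DM, which inserts into the same genes at another site, had sense reads at 65.8, 145.6 and 61.3 CPM in aub libraries, 28.5, 12.8 and 30.4 CPM in piwi libraries, and 21.9, 23.3 and 10.1 CPM in WT libraries. It rose by 2.31 ± 0.46 over WT (adjusted p = 0.0294). This call was lost when aub 2, aub 3 or any 1 of the WT libraries was left out (adjusted p up to 0.0973). Antisense R1_DM reads went the other way without passing the test, at 23.9, 21 and 20.4 CPM in aub libraries against 64.4, 40.7 and 28.4 CPM in WT libraries (log2 fold change -1.03, adjusted p = 0.185). The large ribosomal RNA that these elements interrupt did not pass the test either (-0.23 ± 0.44, adjusted p = 0.875).

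The strand balance of the R1 and R2 elements differed between the groups. Their summed sense reads were 168, 286 and 175 CPM in aub libraries, against 17.4, 30.9 and 15.1 CPM in WT libraries, a 9.94-fold higher mean. Their antisense share was 11.2% ± 3.66 in aub libraries, 41.4% ± 7.49 in piwi libraries and 67.1% ± 6.64 in WT libraries (SD, n = 3 each; summed CPM here and below refer to total counts). The aub and WT libraries did not overlap in either value. Each exact permutation p was 0.1, the smallest that 3 against 3 can give, and the adjusted values were 0.338 over 44 sums and 0.26 over 13 shares.

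Among the other LINE elements, LINEJ1_DM, of the Jockey clade, had sense reads at 69.3, 84.7 and 58.8 CPM in aub libraries, 50.9, 66.7 and 47.9 CPM in piwi libraries, and 19, 22 and 22.7 CPM in WT libraries. Both mutants lay above WT, and LINEJ1_DM rose in aub by 1.74 ± 0.25 (adjusted p = 0.00535, at most 0.0408 with any library left out). Its antisense reads gave -0.36 (adjusted p = 0.567). DMRT1B, a LINE of the R1 clade found outside the ribosomal genes, had sense reads at 13.7, 9.99 and 11.0 CPM in aub libraries, 23.0, 19.5 and 20.1 CPM in piwi libraries, and 43.5, 34.3 and 40.0 CPM in WT libraries. The 3 genotypes did not overlap, with aub lowest. DMRT1B fell by 1.76 ± 0.22 on the log2 scale relative to WT (adjusted p = 0.00308, at most 0.0253 with any library left out).

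The I element, I_DM, is the LINE behind I-R hybrid dysgenesis in this species. Its sense reads were at 6.87, 9.07 and 5.98 CPM in aub libraries, 6.29, 2.40 and 5.77 CPM in piwi libraries, and 24.1, 30.8 and 20.7 CPM in WT libraries. Both mutants lay below WT, and in aub the fall was 1.78 ± 0.32 on the log2 scale (adjusted p = 0.0166), a call lost without aub 1, aub 2, aub 3 or WT 2 (adjusted p up to 0.0969). Of 23 LINE features outside R1, R2 and the telomere tested on each strand, 1 rose and 2 fell on the sense strand (medians -0.20 sense and -0.47 antisense, against 0.02 over all features). No antisense LINE passed edgeR's test, with 2 at an unadjusted p under 0.05 and none called by DESeq2.

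**Figure D2:**
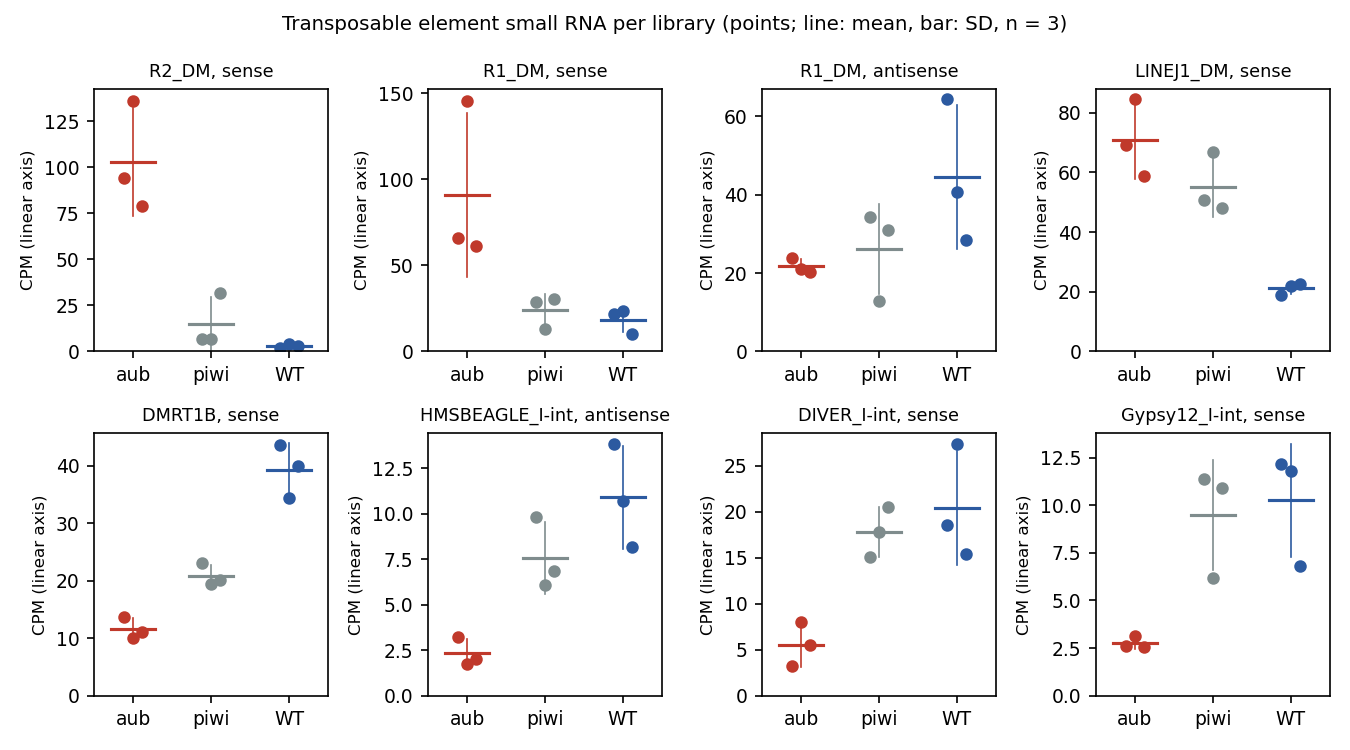
Small RNA level in CPM (y axes, linear) of 8 transposon features in the 3 aub, 3 piwi and 3 WT sperm libraries (x axes), with points for libraries, lines for means and bars for SD. Sense R2_DM is at 78.8 to 135.8 CPM in aub and at most 4.02 CPM in WT, while antisense HMSBEAGLE_I-int and sense Gypsy12_I-int are lowest in aub.

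Retroviral-type LTR elements made up 154 of the 248 transposon and repeat features tested over both strands, and held 6 of the 8 falls and 4 of the 9 rises among them. Their share of falls was 3.90%, against 3.23% over the 248 and 0.935% over all features. HMSBEAGLE_I-int, the internal part of the HMS-Beagle element, had antisense reads at 3.2, 1.74 and 2.03 CPM in aub libraries, 9.83, 6.09 and 6.84 CPM in piwi libraries, and 13.8, 10.7 and 8.17 CPM in WT libraries. The aub libraries lay below all others, as the plot of 8 elements shows. The fall was 2.23 ± 0.32 on the log2 scale relative to WT (adjusted p = 0.0056, at most 0.0428 with any library left out) and 1.70 ± 0.32 relative to piwi (adjusted p = 0.0343, lost without aub 2, aub 3, piwi 1 or piwi 2, up to 0.189).

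Gypsy12_I-int had sense reads at 2.61, 3.12 and 2.53 CPM in aub libraries, 11.4, 6.18 and 10.9 CPM in piwi libraries, and 12.2, 11.8 and 6.83 CPM in WT libraries. It fell by 1.87 ± 0.32 on the log2 scale relative to WT (adjusted p = 0.0147, lost without aub 2 or aub 3, up to 0.0706). DIVER_I-int, of the BEL/Pao group, had sense reads at 3.2, 7.97 and 5.47 CPM in aub libraries, 15.1, 17.8 and 20.5 CPM in piwi libraries, and 18.6, 27.3 and 15.4 CPM in WT libraries. It fell by 1.86 ± 0.33 relative to WT (adjusted p = 0.0147, lost without aub 3 or WT 2, up to 0.0761). For both elements the aub libraries lay below every piwi and WT library. The differences from piwi were -1.76 for Gypsy12_I-int (adjusted p = 0.0291, lost without any aub library, piwi 1 or piwi 3, up to 0.152) and -1.67 for DIVER_I-int (adjusted p = 0.0365, lost without aub 1, aub 3 or any piwi library, up to 0.178).

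The retrotransposon 412, DM412 in the annotation, went opposite ways on its strands, with the sense strand past the test. Its sense reads were at 5.45, 5.41 and 2.23 CPM in aub libraries, 3.14, 1.57 and 5.56 CPM in piwi libraries, and 37.7, 25.2 and 14.4 CPM in WT libraries. Both mutants lay below WT, and the fall in aub was 2.55 ± 0.49 on the log2 scale (adjusted p = 0.0298, lost without any aub library, WT 1 or WT 2, up to 0.113). Its antisense reads were at 57.8, 60.9 and 50.9 CPM in aub libraries, against 24.8, 37.3 and 22.4 CPM in WT libraries, above WT in every library without passing the test (1.01, adjusted p = 0.0546). The antisense reads of DM412B_LTR, a terminal repeat of the same name in the annotation, rose to 7.11, 5.77 and 4.05 CPM in aub libraries, against 1.65, 1.88 and 2.32 CPM in WT libraries (1.50 ± 0.32, adjusted p = 0.0327, up to 0.149 with a library left out). Antisense TRANSPAC_I-int rose to 5.45, 4.22 and 2.64 CPM in aub libraries, against 1.03, 1.34 and 1.22 CPM in WT libraries (1.76 ± 0.38, adjusted p = 0.0342, up to 0.141). Both calls were lost without any 1 of the 6 libraries and with library totals in place of TMM. Rises were also called for sense ROO_LTR (1.24 ± 0.26, adjusted p = 0.0327, up to 0.129 with a library left out) and sense IDEFIX_I-int (1.26 ± 0.27, adjusted p = 0.0342, up to 0.162), and falls for sense BEL_I-int (-1.12 ± 0.23, adjusted p = 0.0305, up to 0.140) and antisense MAX_I-int (-1.31 ± 0.29, adjusted p = 0.0373, up to 0.163). Each of the calls for ROO_LTR, IDEFIX_I-int, BEL_I-int and MAX_I-int was lost without any 1 of at least 5 of the 6 libraries.

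The foldback DNA element FB4_DM was higher in both mutants. Its antisense reads were at 34.4, 52.2 and 20.0 CPM in aub libraries, 79.8, 39.8 and 43.4 CPM in piwi libraries, and 8.46, 11.3 and 8.17 CPM in WT libraries. The rise in aub was 1.94 ± 0.37 (adjusted p = 0.0246, lost without aub 2 or any WT library, up to 0.111). Its sense reads rose by 1.50 ± 0.35 (adjusted p = 0.0455, lost without any 1 of the 6, up to 0.229). Foldback elements are long inverted repeats, so reads of the 2 strands of FB4_DM cannot be assigned apart with certainty.

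HeT-A and TART are the retrotransposons that maintain the chromosome ends of the fly. Sense HETA reads were at 16.8, 19.9 and 13.8 CPM in aub libraries, 13.4, 7.93 and 11.5 CPM in piwi libraries, and 8.25, 2.14 and 1.46 CPM in WT libraries. The aub libraries lay above all WT libraries, with a log2 fold change of 2.12 ± 0.51 that missed the threshold (adjusted p = 0.0677). Summed sense reads of the telomeric elements were 3.41-fold higher in aub, at 23.9, 27.3 and 23.9 CPM in aub libraries against 10.3, 4.84 and 6.85 CPM in WT libraries. Their summed antisense reads were higher as well, by 1.50-fold, at 38.0, 28.2 and 29.9 CPM in aub libraries against 26.8, 17.0 and 20.2 CPM in WT libraries. On library totals both sums were thus higher, the sense sum by more. Divided by the TMM scaling factors (0.726 for WT 1), the antisense sum of WT 1 would lie above every aub library. The lack of overlap in the antisense sum therefore holds only on library totals. The antisense sum does not stand for its single features. Of the 4 tested, 1 had a positive log2 fold change and 3 lay wholly below WT (median -0.58). The antisense share of the telomeric elements was 55.9% ± 5.31 in aub libraries, 79.5% ± 2.5 in piwi libraries and 74.9% ± 2.81 in WT libraries (SD, n = 3 each). The exact permutation p was 0.1 for either sum and for the share against WT, adjusted to 0.338 for the sums and 0.26 for the share.

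The Stellate genes and the Suppressor of Stellate copies were counted as a group on each strand of their annotation. Their summed antisense reads were 65.2, 52.1 and 56.5 CPM in aub libraries, 175, 111 and 154 CPM in piwi libraries, and 131, 118 and 75.0 CPM in WT libraries. The aub libraries lay below all others, with a mean 0.536 times that of WT (exact permutation p = 0.1, adjusted 0.338). All 22 tested antisense features of the group had a negative log2 fold change, with a median of -1.14 (-0.59 without WT 1), against 0.02 over all features. None passed edgeR's adjusted threshold, with 12 at an unadjusted p under 0.05 and 1 called by DESeq2, and the copies share reads, so they are not independent. The lowest adjusted p was 0.0751, for Su(Ste):CR42430 at -1.52.

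Sense reads of the Stellate and Suppressor of Stellate group summed to 12.3, 9.32 and 11.9 CPM in aub libraries, 24.8, 14.6 and 20.0 CPM in piwi libraries, and 5.99, 4.54 and 3.98 CPM in WT libraries. The aub mean was 2.31-fold that of WT and the groups did not overlap (exact permutation p = 0.1, adjusted 0.338). The antisense share was 83.8% ± 1.14 in aub libraries, 88.2% ± 0.527 in piwi libraries and 95.6% ± 0.666 in WT libraries (SD, n = 3 each), without overlap between any of the 3 genotypes. The only Stellate coding feature tested, Ste12DOR, gave 0.91 (adjusted p = 0.488).

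**Figure D3:**
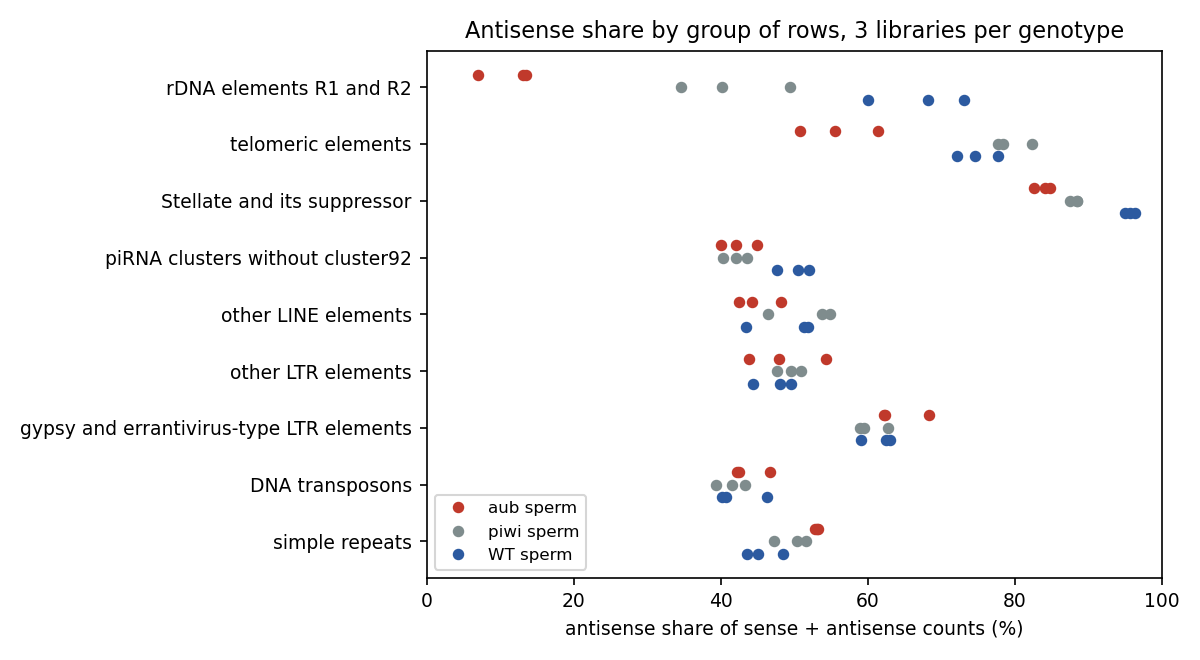
Antisense share of the counts in percent (x axis) for 9 groups of features (y axis), with 1 point for each of the 3 aub, 3 piwi and 3 WT sperm libraries. The R1 and R2 elements stand at 7% to 13.6% in aub against 60.0% to 73.1% in WT, and the Stellate group at 82.6% to 84.8% against 95.0% to 96.3%.

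The plot of antisense shares separates these 2 groups and the telomeric elements from the large transposon families, whose aub and WT points overlap. The simple repeats and the piRNA clusters also differed without overlap. Simple repeats had an antisense share of 53.1% ± 0.194 in aub libraries and 45.7% ± 2.51 in WT libraries, and piRNA clusters other than cluster92 had 42.4% ± 2.45 in aub libraries and 50.1% ± 2.19 in WT libraries (SD, n = 3 each; exact permutation p = 0.1 and adjusted p = 0.26 for both). cluster92 was set aside because it was among the 5 most counted features, together with ribosomal and 7SL RNA. Antisense cluster93, which was lower in aub as given below, stayed in. Sense (TCTTC)n, the most counted repeat of the satellite described below, was also lower in aub and stayed in the simple repeats. The shares were not computed without cluster93 or without the satellite. These values therefore do not speak for the piRNA clusters or the simple repeats as classes.

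The lowest median among the groups of features described here was that of a satellite. Repeats of the unit AAGAG form large blocks of heterochromatin in the fly genome, and their RNA is known from spermatocytes. Reads from the pyrimidine strand of this unit, summed over 9 features, were at 10.8, 7.83 and 29.9 CPM in aub libraries, 78.7, 253 and 82.3 CPM in piwi libraries, and 85.1, 891 and 666 CPM in WT libraries. The aub libraries lay below every piwi and WT library, and the aub mean was 0.0296 times the WT mean (exact permutation p = 0.1, adjusted 0.225 over 9 sums). With 1 library left out, this ratio ran from 0.0170 without aub 3 to 0.0431 without WT 2. WT 1, which also stood apart in composition, was well under WT 2 and WT 3. In bulk libraries such as these, fewer cells of a type and less RNA per cell cannot be told apart.

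Nearly all reads of the AAGAG unit came from its pyrimidine strand, and the few from its purine strand were lower in aub as well. They were at 0.374, 0.280 and 1.01 CPM in aub libraries, against 1.8, 4.24 and 5.48 CPM in WT libraries, without overlap (exact permutation p = 0.1, adjusted 0.225). The ratio was 0.145, and ran from 0.0851 without aub 3 to 0.184 without WT 3. Reads from the purine strand of all repeats made of A and G summed to 57.1, 61.3 and 82.9 CPM in aub libraries, 62.8, 85.5 and 58.6 CPM in piwi libraries, and 63.1, 53.9 and 78.3 CPM in WT libraries, with overlapping groups (ratio 1.03, exact permutation p = 0.8). Their pyrimidine reads summed to 65.2, 33.6 and 63.7 CPM in aub libraries, against 121, 1142 and 834 CPM in WT libraries. Their sum over the purine strand thus overlapped between the groups, while that over the pyrimidine strand did not. Both sums mix repeat units, and the AAGAG unit alone was lower in aub on both strands. The sums therefore do not compare strands of the same unit. Simple repeats of other units summed to 1.14 times the WT level.

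By single features, 11 of the 18 tested repeats read from the pyrimidine strand fell and none rose, with a median log2 fold change of -4.78, against 0.935% of all features that fell and a median of 0.02. The 11 that fell are rotations of 1 repeat unit and its 7-base relative, so they share a source. The rest of the 18 are of other units, such as (CT)n and (CTC)n. None of that rest was called, with log2 fold changes from -0.59 to 0.49. None of the 15 tested repeats read from the purine strand passed edgeR's test, with 1 at an unadjusted p under 0.05 and none called by DESeq2 (median 0.05). Those 15 hold neither the AAGAG unit nor its 7-base relative, so they are not the other strand of the 11 that fell. Antisense (GAAGA)n was at 1.07, 0.458 and 1.62 CPM in aub libraries, 5.11, 12.7 and 10.5 CPM in piwi libraries, and 12, 63.3 and 45.9 CPM in WT libraries. It fell by 5.26 ± 0.72 on the log2 scale (adjusted p = 0.0115), a call lost only without aub 2 (adjusted p = 0.0544). Antisense (GAGAAGA)n fell by 4.61 ± 0.67 (adjusted p = 0.00606), a call lost only without aub 3 (adjusted p = 0.0529).

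The most counted of these repeats, sense (TCTTC)n, was at 3.91, 3.30 and 9.93 CPM in aub libraries, 51.9, 89.4 and 36.8 CPM in piwi libraries, and 51.2, 333 and 258 CPM in WT libraries. It fell by 5.22 ± 0.79 on the log2 scale (adjusted p = 0.0162, lost without aub 1, aub 2, WT 2 or WT 3, up to 0.0882). In single libraries of WT testis, which were not tested, the pyrimidine reads of the AAGAG unit were at 924, 407 and 376 CPM. Antisense cluster93, an annotated piRNA cluster, was also lowest in the aub libraries, at 0.948, 0.733 and 2.74 CPM in aub libraries, 14.7, 22.8 and 13.7 CPM in piwi libraries, and 12.4, 97.9 and 72.7 CPM in WT libraries. It fell by 5.35 ± 0.85 (adjusted p = 0.0249, lost without any aub library, WT 2 or WT 3, up to 0.115).

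**Figure D4:**
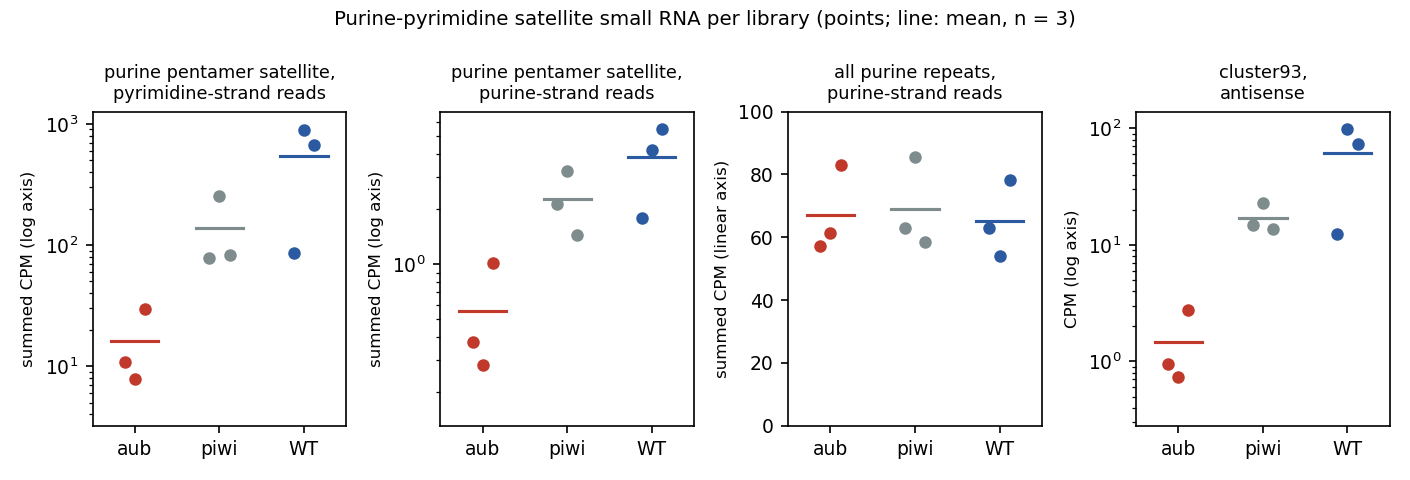
Summed small RNA in CPM (y axes, 3 of them logarithmic) of the purine pentamer satellite by strand, of all purine repeats on the purine strand, and of antisense cluster93, for the 3 aub, 3 piwi and 3 WT sperm libraries (x axes), with points for libraries and lines for means. Pyrimidine-strand reads of the satellite lie at 7.83 to 29.9 CPM in aub and 85.1 to 891 CPM in WT, while purine-strand reads of all purine repeats overlap between the genotypes.

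As the satellite plot shows, both strands of the satellite were lower in aub, and the sum of all purine repeats on the purine strand overlapped between the groups. Outside the purine units, antisense (ATT)n was at 1.19, 2.66 and 1.01 CPM in aub libraries, 2.56, 2.31 and 3.42 CPM in piwi libraries, and 28.7, 13.4 and 11.7 CPM in WT libraries. Both mutants lay below WT, and (ATT)n fell in aub by 3.43 ± 0.43 on the log2 scale (adjusted p = 0.00309, at most 0.0187 with any library left out). Sense (TAATCTA)n was at 4.86, 9.71 and 9.63 CPM in aub libraries, 0.590, 0.646 and 4.92 CPM in piwi libraries, and 0, 0.268 and 0.488 CPM in WT libraries. It rose by 4.72 ± 0.92 (adjusted p = 0.0324, lost without aub 2, aub 3 or any WT library, up to 0.116).

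piRNA clusters are the loci that give rise to most transposon-directed piRNAs. flamenco (flam), which is used in somatic gonad cells, had sense reads at 30.7, 20.9 and 18.1 CPM in aub libraries, against 24.5, 24.9 and 19.5 CPM in WT libraries. The groups overlapped (0.02 ± 0.26, adjusted p = 0.991). The germline cluster 42AB gave -0.52 on the sense strand (adjusted p = 0.582) and 0.11 on the antisense strand (adjusted p = 0.916). Of 43 sense cluster features none passed edgeR's test, with 11 at an unadjusted p under 0.05 and 1 called by DESeq2 (median -0.42), and of 34 antisense ones cluster93 alone was called (median -0.22).

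Among structural RNAs the snoRNAs were lower as a class. They held 0.435% ± 0.0425 of the counts in aub libraries and 0.591% ± 0.0143 in WT libraries (SD, n = 3 each; exact permutation p = 0.1, adjusted 0.525), and the 3 aub libraries lay below the 3 WT libraries. Of 228 tested snoRNAs 13 had a positive log2 fold change, and 96 (42.1%) lay wholly below WT, against 9.35% of all tested features. The class median of -0.74 kept its sign under every scaling tried, at -0.07 with the sum of miRNA counts as library size, and was -0.44 without WT 1. The class median for piwi against the same WT libraries was -0.15.

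The snoRNAs with the widest fall guide methylation of the 28S ribosomal RNA. snoRNA:Me28S-A2634b (chromosome 3L, 1666665 to 1666745) was at 1.90, 0.550 and 1.22 CPM in aub libraries, 15.5, 7.19 and 10.9 CPM in piwi libraries, and 18.6, 7.77 and 13.9 CPM in WT libraries. Its neighbour snoRNA:Me28S-A2634c (1666437 to 1666522) was at 1.30, 0.550 and 0.507 CPM in aub libraries, 13.8, 10.3 and 11.3 CPM in piwi libraries, and 15.5, 4.56 and 6.83 CPM in WT libraries. The aub libraries lay below every piwi and WT library for both. The falls relative to WT were 3.48 ± 0.46 and 3.52 ± 0.49 on the log2 scale (adjusted p = 0.00403 and 0.00519, at most 0.0283 and 0.0424 with any library left out).

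Against piwi, snoRNA:Me28S-A2634c fell by 3.91 ± 0.48 on the log2 scale (adjusted p = 0.0033, at most 0.0377 with any aub or piwi library left out), and snoRNA:Me28S-A2634b fell by 3.2 ± 0.46 (adjusted p = 0.00903, lost without aub 3 at 0.0701). Antisense reads of the CG7974 3′ UTR carried counts within 0.247% of those of snoRNA:Me28S-A2634c, so reads of the pair cannot be told apart and no separate change is claimed for CG7974. snoRNA:Me28S-C3227b was at 8.65, 11.7 and 5.47 CPM in aub libraries, 11.2, 6.18 and 11.1 CPM in piwi libraries, and 33.8, 46.1 and 35 CPM in WT libraries. Both mutants lay below WT for this one, and the fall in aub was 2.15 ± 0.32 (adjusted p = 0.00572, at most 0.0365 with any library left out). The other 6 called snoRNAs fell by 1.11 to 2.03 and were each lost without at least 4 of the 6 libraries.

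Of 83 miRNA precursors tested, 1 passed the threshold. mir-959, of a testis-expressed cluster on chromosome 2L, was at 4.27, 12.6 and 6.79 CPM in aub libraries, 1.97, 2.31 and 8.77 CPM in piwi libraries, and 0.413, 1.34 and 0.244 CPM in WT libraries. The aub libraries lay above WT but overlapped with piwi. The rise was 3.78 ± 0.80 (adjusted p = 0.0433, lost without aub 2, aub 3 or any WT library, up to 0.164). The 6 members of that cluster summed to 29.8, 73.8 and 54.8 CPM in aub libraries, 11.2, 14.3 and 60.2 CPM in piwi libraries, and 3.15, 18.5 and 7.27 CPM in WT libraries, a 5.49-fold higher mean in aub than in WT.

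A second male-germline cluster, on the X chromosome, summed to 21.6, 49.0 and 29.9 CPM in aub libraries, 4.25, 9.43 and 24.7 CPM in piwi libraries, and 2.40, 12.7 and 2.88 CPM in WT libraries, a 5.58-fold higher mean in aub than in WT. Without WT 2 the 2 folds were 10.1 and 12.7, and without WT 1 they were 4.10 and 4.30. The exact permutation p was 0.1 for each cluster (adjusted 0.338). The 5 tested members of each cluster all had positive log2 fold changes, with medians of 2.81 and 2.68, against -0.57 for all miRNAs (-0.11 without WT 1). Without WT 2, which held the most of both clusters in WT, the medians were 3.43 and 3.86, and without WT 3 the X-linked one was 1.85. Within the X-linked cluster no member passed edgeR's test, with 4 at an unadjusted p under 0.05 and 3 called by DESeq2. Its members mir-976 and mir-975 gave 2.80 (adjusted p = 0.108) and 2.68 (0.0895). In the cluster on 2L, mir-960 gave 2.81 (adjusted p = 0.0999).

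The spermatocyte and spermatid marker genes, set beside these miRNAs, did not separate the groups, since aub 3 held 154 CPM of them and aub 2 held 15.9 CPM. Their 15 tested genes had a median of 0.10. None of the 22 tested features of the list passed edgeR's test, with 2 at an unadjusted p under 0.05 and none called by DESeq2. Their part in the miRNA values was not tested. miRNAs expressed in many tissues went the other way. Of 59 tested, 4 had a positive log2 fold change, and the median was -0.66. None passed edgeR's test, with 16 at an unadjusted p under 0.05 and 2 called by DESeq2. Their direction depends on the scaling, because with the sum of miRNA counts as library size the median of all miRNAs was 0.16. Without WT 1 the median of all miRNAs was -0.11 and that of the 59 was -0.24, with mir-276a at 4096 CPM in WT 1 against 455 and 447 CPM in WT 2 and WT 3, and 648, 338 and 426 CPM in aub libraries.

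Hairpin RNAs, the sources of endogenous siRNAs that pair with testis genes, summed to 113, 118 and 117 CPM in aub libraries, 92.8, 92.5 and 108 CPM in piwi libraries, and 61.6, 62.7 and 57.8 CPM in WT libraries. On library totals the genotypes did not overlap, and the aub mean was 1.91-fold that of WT (exact permutation p = 0.1, adjusted 0.338). Divided by the TMM scaling factors, the piwi libraries would overlap with both aub and WT, and only aub and WT would stay apart. All 5 tested hairpins were positive with a median of 0.94, and none passed edgeR's test, with 3 at an unadjusted p under 0.05 and none called by DESeq2. Of 263 tRNA genes tested, tRNA:Cys-GCA-3-1 alone was called, at 12.6, 14.2 and 9.02 CPM in aub libraries, 4.13, 3.87 and 7.70 CPM in piwi libraries, and 4.95, 2.68 and 2.93 CPM in WT libraries (1.76 ± 0.34, adjusted p = 0.0243, lost without aub 2, aub 3, WT 2 or WT 3, up to 0.116). Copies of tRNA genes are near identical, so the copy is uncertain. The 13 tested copies of the Lys-CTT tRNA had a median of -0.86 and a lowest adjusted p of 0.158.

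Reads on the sense strand of protein-coding genes and their UTRs gave 149 called features from 128 genes, 68 with higher and 60 with lower features and none with both. Fragments of longer RNA can enter such counts. The lead gene was GILT3 (chromosome 3R, 23677358 to 23678421), of the family of lysosomal thiol reductases. Its exons were at 25.7, 37.8 and 33.1 CPM in aub libraries, 20.0, 17.2 and 25.5 CPM in piwi libraries, and 1.86, 0.536 and 1.10 CPM in WT libraries. Both mutants lay far above WT. The rise in aub was 4.74 ± 0.36 (adjusted p = 5.2e-05, at most 0.000731 with any library left out). The 3′ UTR of GILT3 held 83 counts in the 3 aub libraries and 0 in the 3 WT libraries, at least 15.9-fold higher against a floor of 3 counts over the WT group (a call lost without aub 2, aub 3 or any WT library, adjusted p up to 0.0952).

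Other features that rose and kept the call with any library left out were exons of 3 genes. St4, a sulfotransferase gene, was at 9.96, 7.70 and 6.69 CPM in aub libraries, 5.11, 3.14 and 4.28 CPM in piwi libraries, and 0.206, 1.34 and 1.46 CPM in WT libraries (2.94 ± 0.43, adjusted p = 0.00572, at most 0.0340). ome, which encodes a dipeptidyl peptidase, was at 15.5, 20.3 and 22.7 CPM in aub libraries, 7.27, 12.4 and 18.0 CPM in piwi libraries, and 3.71, 4.56 and 4.88 CPM in WT libraries (2.14 ± 0.32, adjusted p = 0.00606, at most 0.0397). EbpIII, an ejaculatory bulb protein, was at 42.9, 67.3 and 47.1 CPM in aub libraries, 27.9, 26.8 and 28.4 CPM in piwi libraries, and 16.7, 18.8 and 14.0 CPM in WT libraries (1.67 ± 0.24, adjusted p = 0.0056, at most 0.0387). In all 3 the piwi libraries stood above WT, and the aub libraries were highest for St4 and EbpIII.

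Cda4, a chitin deacetylase gene, was at 2.25, 3.94 and 3.34 CPM in aub libraries, 0.393, 0.184 and 0.642 CPM in piwi libraries, and 0.206, 0 and 0 CPM in WT libraries. Here piwi stayed near WT. Cda4 rose by 5.38 ± 0.81 over WT (adjusted p = 0.0063, lost without aub 2 at 0.0544). Sema2a, a secreted semaphorin, rose by 2.21 ± 0.37 (adjusted p = 0.0119, lost without aub 3 or WT 3, up to 0.0700), and its piwi libraries were as high as its aub libraries.

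The higher features with the most counts included Arc1, a gene of retrotransposon Gag origin whose protein forms capsids that carry its own mRNA between cells. Its 3′ UTR was at 554, 589 and 495 CPM in aub libraries, 370, 247 and 426 CPM in piwi libraries, and 166, 229 and 204 CPM in WT libraries. It rose by 1.45 ± 0.30 (adjusted p = 0.0294), a call lost without any aub library, WT 2 or WT 3 (up to 0.133). Its exons rose by 1.24 ± 0.27 (adjusted p = 0.0359, lost without any 1 of the 6, up to 0.161). CR10102, an annotated pseudogene directly beside Arc1 on chromosome 2R, was at 295, 304 and 277 CPM in aub libraries, 210, 136 and 255 CPM in piwi libraries, and 93.6, 99.7 and 93.6 CPM in WT libraries (1.61 ± 0.28, adjusted p = 0.0147, lost without aub 2, aub 3, WT 2 or WT 3, up to 0.0806). For both genes the aub libraries lay above every piwi and WT library.

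Indy, a citrate transporter gene known for its effects on metabolism and life span, was at 155, 127 and 178 CPM in aub libraries, 108, 107 and 78.7 CPM in piwi libraries, and 43.9, 64.6 and 71.6 CPM in WT libraries. The 3 genotypes did not overlap, and the rise over WT was 1.35 ± 0.28 (adjusted p = 0.0295, lost without any 1 of the 6, up to 0.137). The scavenger receptor gene emp rose by 1.54 ± 0.34 (adjusted p = 0.0395, up to 0.171) and the saposin gene Sap-r by 1.37 ± 0.32 (adjusted p = 0.0488, up to 0.232), each call lost without aub 2, aub 3 or any WT library.

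Among the lower genic features, CG17111 exons were at 0.711, 0.641 and 0.304 CPM in aub libraries, 1.18, 0.553 and 0.855 CPM in piwi libraries, and 17.9, 11.5 and 8.90 CPM in WT libraries, and the fall in aub was 4.49 ± 0.41 on the log2 scale (adjusted p = 0.000275). The 3′ UTR of Adgf-A, a secreted adenosine deaminase that lowers extracellular adenosine, was at 0.356, 0.458 and 0.405 CPM in aub libraries, 1.18, 1.84 and 1.07 CPM in piwi libraries, and 4.74, 9.65 and 10.7 CPM in WT libraries (-4.31 ± 0.43, adjusted p = 0.000558). Exons of CG2233 were at 17.4, 10.5 and 12.2 CPM in aub libraries, 24.2, 18.3 and 16.7 CPM in piwi libraries, and 63.5, 102 and 132 CPM in WT libraries (-2.89 ± 0.32, adjusted p = 0.000987). In all 3 both mutants lay below WT, and the largest adjusted p with a library left out was 0.0126.

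cDIP, which encodes a partner of the Dpr cell-surface proteins, fell by 4.64 ± 0.50 on the log2 scale (adjusted p = 0.000987, at most 0.0116 with any library left out). beat-VII, of the beaten path family of immunoglobulin-domain proteins, held 0 exon counts in the 3 aub libraries and 75 in the 3 WT libraries, at least 43.5-fold lower against a floor of 3 counts over the aub group (adjusted p = 0.0035, at most 0.0170). Its piwi libraries were at 0, 0.277 and 0 CPM. The 3′ UTR of beat-VII fell by 5.92 ± 0.67 (adjusted p = 0.000987, at most 0.0079), and antisense reads of CG14507 exons fell by 3.56 ± 0.40 (adjusted p = 0.000987, at most 0.0116).

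Of the 6 lists of tissue marker genes, that of fat body and hemocytes alone held calls by edgeR's test. Of its 10 tested features 3 fell and none rose, with a median of -2.05 (-1.25 without WT 1), against 0.935% of all features that fell and a median of 0.02. The 3 are from 2 neighbouring genes, so they are not independent. vkg and Col4a1 are neighbours on chromosome 2L and encode the collagen IV chains of basement membranes. vkg exons were at 13.4, 9.81 and 7.50 CPM in aub libraries, 33.4, 20.5 and 13.9 CPM in piwi libraries, and 62.3, 33.2 and 41.1 CPM in WT libraries (-2.16 ± 0.35, adjusted p = 0.0115, lost without aub 2 or aub 3, up to 0.0697). Col4a1 exons were at 17.3, 12.1 and 9.43 CPM in aub libraries, 36.4, 21.7 and 16.7 CPM in piwi libraries, and 74.7, 39.1 and 45.6 CPM in WT libraries (-2.04 ± 0.35, adjusted p = 0.0147, lost without aub 2 or aub 3, up to 0.0838). The third was the Col4a1 3′ UTR (-2.59, adjusted p = 0.0292, lost without aub 2, aub 3, WT 2 or WT 3, up to 0.128).

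The fat body and hemocyte markers together were measured as well, and the groups overlapped. All 15 had counts, and they summed to 191 to 349 CPM in aub libraries, 101 to 231 CPM in piwi libraries and 265 to 535 CPM in WT libraries, with 7 tested genes at a median of -2.04. Their part in the result was not tested. Muscle (13 tested genes, median -0.37) and accessory gland and ejaculatory duct (25 tested, median 0.08) had no called gene by edgeR's test. Over all features of these 2 lists, 3 and 1 were at an unadjusted p under 0.05 and none was called by DESeq2. The ejaculatory bulb gene EbpIII, called above, was not on the accessory gland and ejaculatory duct list, although EbpII was. The piRNA pathway genes, 10 features tested with a median of 0.16, had none called by edgeR or DESeq2 and 2 at an unadjusted p under 0.05.

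The other lower features described here are from a gene without a known role and from metabolic and lysosomal genes, of which CG42342 and the Tps1 exons were picked after their values were seen. CG42342 exons were at 3.44, 2.93 and 3.85 CPM in aub libraries, 19.9, 12.7 and 18.8 CPM in piwi libraries, and 17.3, 12.1 and 10.5 CPM in WT libraries, lower in aub than in either (-1.96 ± 0.28 against WT, adjusted p = 0.00535, at most 0.0408). The cytochrome P450 gene Cyp6d5 was at 24.5, 27.1 and 22.8 CPM in aub libraries, 20.0, 11.3 and 7.70 CPM in piwi libraries, and 49.7, 151 and 140 CPM in WT libraries (-2.19 ± 0.42, adjusted p = 0.0246, lost without any aub library, WT 2 or WT 3, up to 0.124). mv, a lysosomal trafficking regulator, fell by 1.83 ± 0.32 (adjusted p = 0.0147, lost without aub 2, aub 3 or WT 3, up to 0.0904), and Tps1, the enzyme that makes the blood sugar trehalose, by 1.90 ± 0.30 in its exons (adjusted p = 0.0085, lost without aub 2 or aub 3, up to 0.0646).

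**Figure D5:**
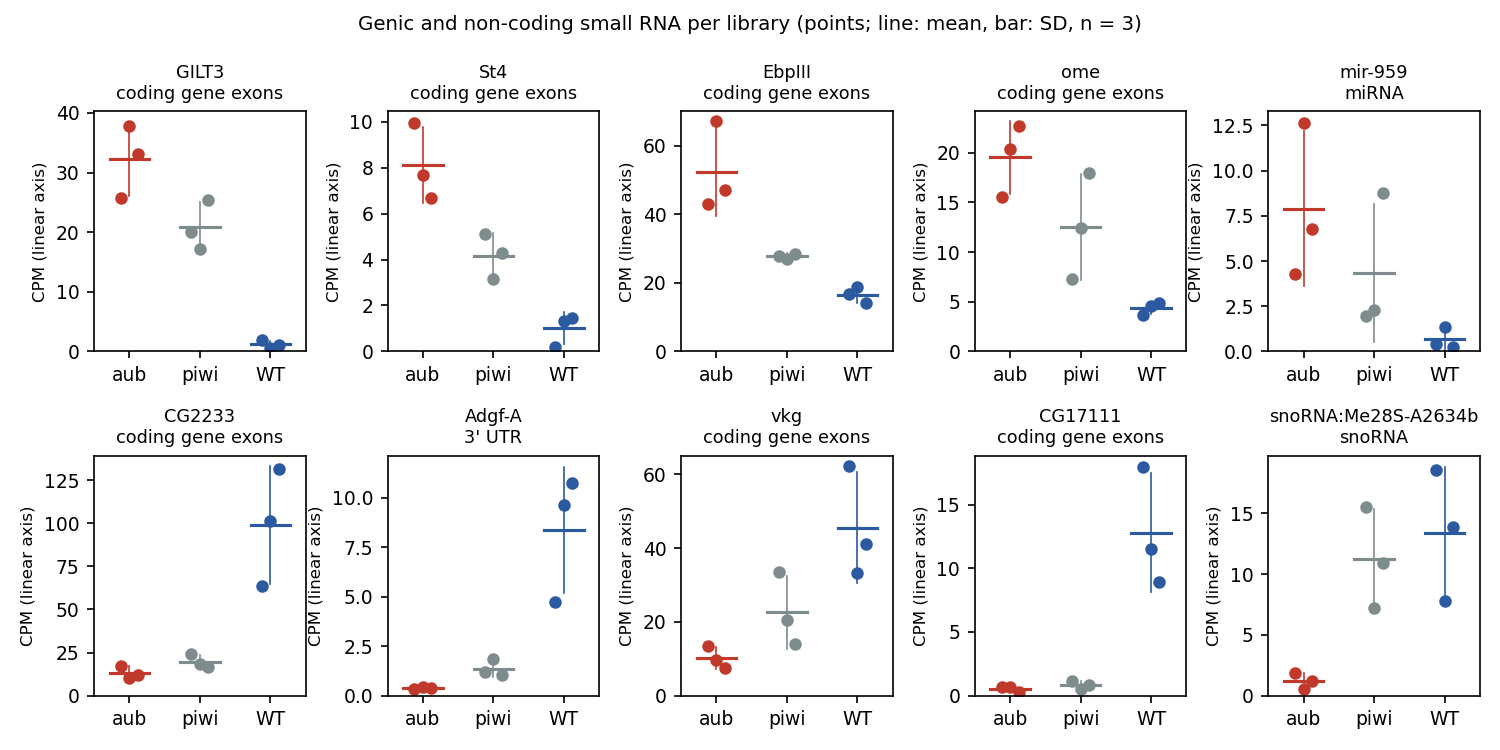
Small RNA level in CPM (y axes, linear) of 10 features of genes, a miRNA and a snoRNA in the 3 aub, 3 piwi and 3 WT sperm libraries (x axes), with points for libraries, lines for means and bars for SD. GILT3 exons are at 25.7 to 37.8 CPM in aub and at most 1.86 CPM in WT, with piwi close to aub, whereas snoRNA:Me28S-A2634b is at most 1.90 CPM in aub with piwi close to WT.

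The plot of genes shows 2 arrangements of the second mutant. In GILT3, CG2233, CG17111 and the Adgf-A 3′ UTR the piwi libraries lie on the side of aub, and in snoRNA:Me28S-A2634b on the side of WT. Both mutants are set against the same 3 WT libraries, so a deviation of those libraries would enter both. Calls on coding exons were found on every large chromosome arm, with 10 higher and 13 lower of 843 tested on 2L, where aub lies, and 5 higher and 1 lower of 784 on the X. Within 1 Mb of aub, 2 of 104 tested exon features rose and 3 fell.

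Set directly against piwi sperm, aub sperm had 56 called features (0.518% of those tested), 30 higher (0.278%) and 26 lower (0.241%). Of these 56 calls, 12 held with any 1 of the 6 aub and piwi libraries left out, and the number was 28, 20 and 14 without aub 1, aub 2 and aub 3, 24 and 26 without piwi 1 and piwi 2, and 138 without WT 1, which enters the estimate of spread. The split was 50 higher and 20 lower with library totals and 520 higher and 21 lower with the sum of miRNA counts as library size. The lowest adjusted p was that of the 3′ UTR of CG42521, at 83.7, 84.1 and 107 CPM in aub libraries and 2.95, 3.14 and 1.07 CPM in piwi libraries (5.21 ± 0.41, adjusted p = 8.15e-05), with WT libraries at 64.2, 127 and 94.5 CPM. It was piwi that stood apart there. snoRNA:Or-CD9a was at 3.2, 3.76 and 3.14 CPM in aub libraries, 23.0, 20.9 and 21.4 CPM in piwi libraries, and 3.92, 5.36 and 3.29 CPM in WT libraries (aub over piwi -2.68 ± 0.24, adjusted p = 0.000164), again with piwi apart.

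The transposon gypsy, Gypsy_I-int, is an errantivirus held down by flamenco piRNAs in the soma of the gonad. Its antisense reads were at 10.2, 7.42 and 6.39 CPM in aub libraries, 45.2, 31.8 and 40.2 CPM in piwi libraries, and 11.1, 7.24 and 8.42 CPM in WT libraries. Aub sperm overlapped with WT and lay below piwi by 2.29 ± 0.26 on the log2 scale (adjusted p = 0.00163, at most 0.0281 with any aub or piwi library left out). Antisense reads of DOC, a Jockey-clade LINE, showed the same order, at 48.1, 39.1 and 32.5 CPM in aub libraries, 162, 103 and 106 CPM in piwi libraries, and 48.1, 33.0 and 32.7 CPM in WT libraries (aub over piwi -1.63 ± 0.28, adjusted p = 0.0244, lost without any aub library or piwi 1, up to 0.152). Of the 56 features called against piwi, 14 were also called against WT in the same direction, 5 higher and 9 lower, among them HMSBEAGLE_I-int, Gypsy12_I-int, DIVER_I-int and both A2634 snoRNAs above. CG42342 exons were one of these, at -2.32 ± 0.28 relative to piwi (adjusted p = 0.00228, at most 0.0289 with any aub or piwi library left out). Both comparisons use the same 3 aub libraries, so a deviation of those libraries would enter both. The 14 also hold antisense reads of the CG7974 3′ UTR, which cannot be told apart from those of snoRNA:Me28S-A2634c.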

How the data were processed

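Small RNA counts per annotated feature and strand were deposited by the authors as raw counts, in 1 sense and 1 antisense table. Per the submitters' processing notes, the tools were Trim Galore 0.5.0 with cutadapt, Bowtie 1.2.3, SAMtools 1.8 and featureCounts (Subread 2.0.0), with builds dm6 and BDGP6. How reads with several matching places were counted is not given in the sources used here, so features that share sequence or overlap (transposon, satellite, tRNA, snoRNA and Stellate copies, UTRs with their exons) share reads uncertainly. Without molecular identifiers, reads are not independent molecules, and 3 counts correspond to 0.280 to 0.908 CPM per library. A further 3 columns of each table matched no sample's labels and were not used.

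Sense and antisense features of the 9 sperm libraries of aub, piwi and WT flies were fitted together in edgeR 4.0.16 (R 4.3.3, limma 3.58.1): filterByExpr with a minimum count of 10, TMM scaling, robust quasi-likelihood fit (common biological coefficient of variation 0.315), contrasts aub over WT, aub over piwi and piwi over WT. Shares and sums were compared by two-sided exact permutation over libraries. Replicate pairs of a genotype differed by more than sampling noise. DESeq2 1.42.0, other scalings, other filters, a replicate block and each library left out were the alternatives.

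Lists and features were chosen with earlier results of these data known. Named features are, among called ones, the 8 higher and 8 lower with the smallest p and the 6 of each direction with the highest mean, and the 2 most counted and 2 with the smallest p of each class and list. Features named in addition, and all of those of the comparison with piwi, were picked after their values were seen. They are sense ROO_LTR, BEL_I-int, I_DM and (TAATCTA)n, antisense TRANSPAC_I-int, MAX_I-int and (GAAGA)n, snoRNA:Me28S-C3227b, the exons of beat-VII, CG42342 and Tps1, and the UTRs of GILT3 and Col4a1.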

Additional observations from a re-analysis of the deposited data

How the results depend on the processing

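Of the 199 features called in aub against WT sperm (1.84% of those tested), none changed sign under any alternative run, and DESeq2 called all 199. DESeq2 called 389 features in all (186 higher, 203 lower), no filter beyond 1 count gave 648 (361 higher, 287 lower), and miRNA library sizes gave 309, of which 121 were among the 199. Library totals gave 166 calls (98 higher, 68 lower) and DESeq2 size factors 199 (91 higher, 108 lower). Leaving out 1 aub or WT library gave 34 to 164 calls, and leaving out piwi replicate 3, an alternative added after seeing the data, gave 314. For aub against piwi (56 calls, 0.518%), the count was 541 with miRNA library sizes, 320 without the filter, 144 with DESeq2 and 14 to 138 with 1 library left out. For piwi against WT (97 calls, 0.898%), it was 155, 367 and 196 in the same order, and 39 to 139 with 1 library left out. In each case the cause was not tested.

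The replicate number was tried as a replicate block, which gave 312 calls (160 higher, 152 lower) for aub against WT, with 193 of the 199 among them, and 86 for aub against piwi. Deviations of same-numbered aub and WT libraries correlated at 0.148, 0.135 and -0.035. The libraries aub 1 and aub 2 correlated best with their own number in WT, and aub 3 did not. Neither these values nor the labels settle whether same-numbered libraries were paired, and the main fit treated them as unpaired.

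Depth limits what is said of features near 3 counts, which are 0.280 to 0.908 CPM here. Of the called features, 101 of 199 had no group mean reaching 10 CPM. With 3 libraries a side, exact tests of sums and shares cannot go below 0.1, so those differences rest on the lack of overlap and not on a passed test. Library totals, miRNA sums and TMM disagree by up to 0.6 on the log2 scale in where the middle of the data lies, which limits small changes.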
